A study of Homo sapiens with 8 samples.

Results

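The interleukin-6 (IL-6) family signalling genes described here are 3 secreted cytokines (IL6, LIF and IL11), 4 receptor chains (IL6R, IL6ST, LIFR and OSMR) and 3 feedback inhibitors (SOCS1, SOCS2 and SOCS3). These 10 genes, of the 58302 in each deposited file, were taken by gene symbol. They were measured by RNA sequencing in 8 libraries from A549, a human lung adenocarcinoma cell line. The 4 groups held 2 libraries each. A first pair of groups compared an shRNA against AXL, a receptor tyrosine kinase, with a control shRNA. A second pair compared 40 nM TP-0903, a kinase inhibitor directed at AXL, with control cells. By its stated purpose, the series asks which pathways could make lung cancer cells resist TP-0903. Each treatment was compared with its own control. The titles carry P15 or P3 for the shRNA libraries and P17 or P4 for the other libraries, and the meaning of these numbers is not stated. The libraries are called here by group and number. All groups are the same line in the same serum-containing medium. The number and sequence of the hairpins, whether the knockdown cells are 1 clone, what the control cells received, and the length of treatment do not appear in the labels. The replicates are labelled as biological, with no word on how they arose.

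Cytokines of this family bind a specific receptor chain and then the shared chain gp130, the product of IL6ST, or pair gp130 with LIFR or OSMR. JAK kinases bound to the receptors then phosphorylate STAT factors, chiefly STAT3, which enter the nucleus and switch on target genes. SOCS genes are among these targets, and their proteins shut the receptors down again. In lung adenocarcinoma the pathway is known as a growth and survival signal that can run alongside receptor tyrosine kinases.

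Library totals ran from 30067011 to 44217023 expected counts, and 17676 genes were tested, all 10 family genes among them. The targeted gene AXL, measured in CPM (counts divided by scaled library size), stood at 112 ± 38.5 CPM (SD, n = 2) with the control shRNA and 59.2 ± 5.35 CPM with the AXL shRNA. Its log2 fold change of -0.92 (SE 0.42) was not called by edgeR's quasi-likelihood test (adjusted p = 0.12), and was called with the P number as a block (adjusted p = 8.58e-04). With TP-0903, AXL was at 217 ± 89.2 CPM against 160 ± 78.9 CPM in control cells (log2 fold change 0.43, adjusted p = 0.544, and 0.0354 with the block). As a check of the cell type, the 13 epithelial markers had summed levels of 21060 to 41030 TPM (a level corrected for transcript length and depth). Keratins such as KRT8 (2576 TPM with the control shRNA and 3644 TPM in control cells) and A549's detoxifying enzymes such as ALDH1A1 (5780 and 7814 TPM) carried most of this, while the surface marker EPCAM was low (11.8 and 8.40 TPM). The surfactant gene SFTPC had 1 to 4 counts and the lung factor NKX2-1 had 0 to 9 counts, so these alveolar markers were at or near 0. Of the other cell types' markers, PTPRC of leukocytes had 0 to 2 counts and DCN of fibroblasts had 0 to 3 counts, but others in these lists were detected, such as CD68 at group means of 12.1 to 16.6 CPM and COL1A1 at 10.4 to 27.4 CPM. In bulk RNA, a smaller share of cells of a type and less RNA per cell cannot be told apart.

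The promoters of the family genes were read from RefSeq (GRCh38.p14), as 300 bases from 250 before to 50 after each listed start. Entries were found for 8 of the 10 genes, 11 promoters in all, and not for LIF and SOCS2. They are shown because members of the factor families that read these letters, NF-kappaB, AP-1 and STAT, were among the genes measured. On both strands, the search used GGGANTTTC for an NF-kappaB site, TGANTCA for AP-1 and TTCNNNGAA for a STAT dimer, where N is any base. Each promoter with a match had 1 match, so none overlapped another. Matches are in capitals, and each line is 30 bases, 5′ to 3′ along the gene:
IL6, kappaB letters, chr7:22727116-22727145, plus strand: ttatcaaatgtGGGATTTTCccatgagtct
IL11, AP-1 letters, chr19:55370542-55370571, minus strand: aggcagggagggTGAGTCAggatgtgtcag
IL6R, AP-1 letters, chr1:154405363-154405392, plus strand: aggaccgtccgccgctcTGAGTCAtgtgcg
OSMR, AP-1 letters, chr5:38846003-38846032, plus strand: ttgccccgcagcTGATTCAtagccccggcc
LIFR, STAT letters, one of its promoters, chr5:38557631-38557660, minus strand: tgctttggagtTTCATCGAAaggtctttaa
LIFR, STAT letters, another of its promoters, chr5:38595552-38595581, minus strand: cccattactagTTCCTTGAAccacaatcca
The IL6 match lies 73 to 65 bases before the start and the IL11 match 96 to 90 bases before it. The IL6R match lies 37 to 43 bases after its start and the OSMR match 3 to 9 bases after its start. The LIFR matches lie 182 to 174 and 165 to 157 bases before their starts. Among 35116 RefSeq promoters of this length, 1.28% held the kappaB letters, 7.71% the AP-1 letters and 7.66% the STAT letters. The promoters read for IL6ST, SOCS1 and SOCS3 had no match. Those of SOCS3, chr17:78359618-78359917 and chr17:78360876-78361175, do not cover the gene's GENCODE start at 78360077, so the bases around it were not searched. A match is a description of the letters and not evidence of binding.

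By mean TPM over the 8 libraries, the order was IL6ST (80.3), OSMR (71.9), LIF (38.2), IL11 (33.0), SOCS2 (12.0), SOCS3 (9.91), IL6R (8.12), LIFR (6.80), SOCS1 (1.15) and IL6 (1.12). The ranges over libraries overlapped for each pair of neighbours in that order except LIFR and SOCS1, where the lowest LIFR library (4.47 TPM) was above the highest SOCS1 library (3.40 TPM). This order pools the groups. IL6R stood above LIFR through the AXL shRNA libraries alone, and IL11 had a higher mean than LIF in both control groups (59.9 against 46.4 TPM with the control shRNA and 45.2 against 32.6 TPM in control cells). IL6 varied most, by 12.4 times between its lowest and highest library, and OSMR least, by 1.70 times.

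**Figure D1:**
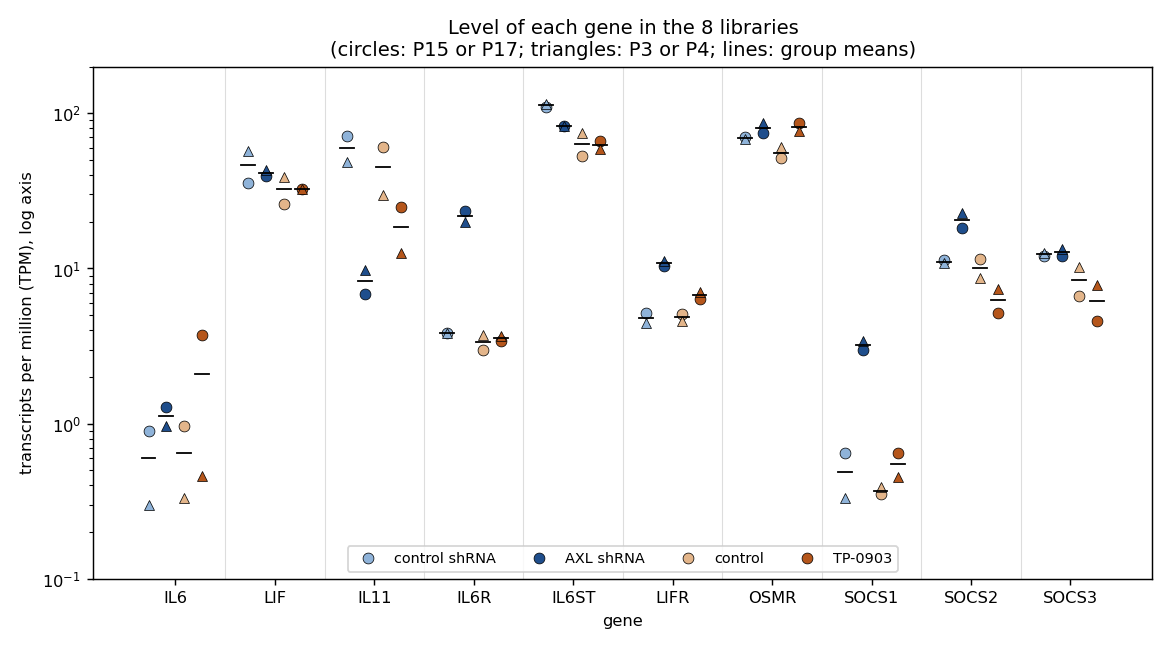
Level of each of the 10 genes in the 8 libraries, in TPM on a log axis, with circles for P15 or P17, triangles for P3 or P4 and short lines for group means. IL6R, LIFR, SOCS1 and SOCS2 stand highest in both AXL shRNA libraries, and IL11 stands lowest there.

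With the AXL shRNA, 6 of the 10 genes passed an adjusted p of 0.05 in edgeR's quasi-likelihood test: IL6R, LIFR, OSMR, SOCS1 and SOCS2 rose and IL11 fell. Of all genes tested, 37.5% passed in this comparison, 18.5% higher and 19% lower, so a call alone was common. With the P number as a block, which adds IL6, 7 of 10 passed against 51.7% of all genes. In CPM, the libraries of 9 of the 10 genes did not overlap between the groups, against 70% of all genes, and those of LIF did. In TPM those of SOCS3 overlapped as well. The median log2 fold change of the 10 genes was 0.86, and that of all genes was -0.01. Without the P15 control shRNA library the number of all genes called dropped from 6627 to 4408.

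With TP-0903, OSMR alone passed, and it rose. Of all genes, 11.3% passed, 4.9% higher and 6.35% lower. With the block, 5 of the 10 genes passed (LIFR and OSMR higher, IL11, SOCS2 and SOCS3 lower), against 26.3% of all genes. In CPM, the groups of 6 of the 10 genes did not overlap, against 59.8% of all genes. The median log2 fold change of the 10 genes was 0.22, and that of all genes was -0.02. Leaving out 1 of the 4 libraries compared took the number of all genes called from 1989 to 584 (without P17 control), 489 (without P17 TP-0903), 898 (without P4 control) or 1089 (without P4 TP-0903).

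**Figure D2:**
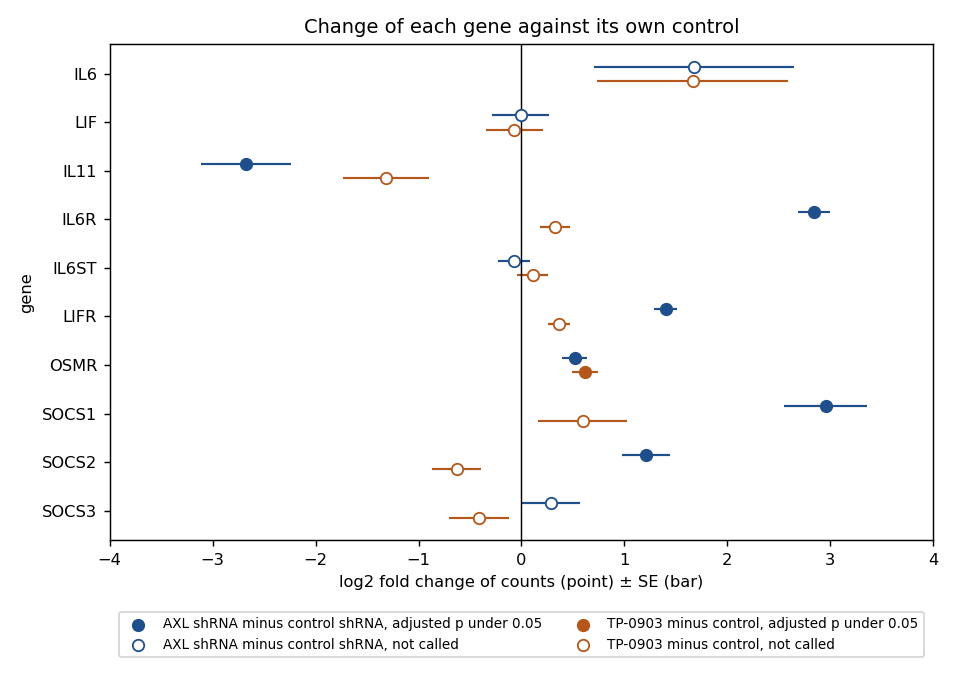
Log2 fold change of counts for each gene against its own control, with bars of 1 SE. Filled points passed an adjusted p of 0.05 in edgeR's quasi-likelihood test: 6 for the AXL shRNA, and OSMR for TP-0903.

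Among the ligands, IL11 alone was called. IL11 (ENSG00000095752, chr19:55364389-55370463, minus strand) encodes a cytokine that signals through its own receptor chain, IL11RA, and gp130. It stood at 71.0 TPM (P15) and 48.8 TPM (P3) with the control shRNA and at 6.80 and 9.71 TPM with the AXL shRNA. The knockdown libraries were both far below their controls, at 11.3% and 21.6% of the control of the same number in CPM. The change on the log2 scale was -2.67 (SE 0.44, 95% CI -3.70 to -1.65), a 6.38-fold fall (edgeR adjusted p = 0.00379).

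In control cells IL11 was at 60.9 TPM (P17) and 29.6 TPM (P4), and with TP-0903 it was at 24.7 and 12.5 TPM. Both treated libraries were below both controls, though the gap from the lower control to the higher treated library was small beside the spread of the controls. On the log2 scale the change was -1.32 (SE 0.42, edgeR adjusted p = 0.0878), and the blocked value was -1.29 (adjusted p = 0.00179). IL11RA, the receptor chain, was at 4.64 to 6.90 TPM in all libraries and was not called in either comparison.

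IL6 (ENSG00000136244, chr7:22725884-22732002, plus strand), the founding cytokine of the family, was near the detection limit. It had 11 (P15) and 5 (P3) expected counts with the control shRNA and 28 and 30 with the AXL shRNA. Both knockdown libraries were above both controls. In counts the log2 fold change was 1.68 (SE 0.97, 95% CI -0.60 to 3.95, edgeR adjusted p = 0.212), and the blocked value was 1.72 (adjusted p = 0.0415).

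With TP-0903, IL6 had 61.3 counts (P17) and 7 counts (P4), and control cells had 16 and 9. In counts the P17 treated library alone was high, and the P4 treated library was the lowest of these 4. In TPM the P4 treated library (0.46) was above the P4 control (0.33). The log2 fold change of 1.66 (SE 0.92, edgeR adjusted p = 0.288) turned to -0.66 when the P17 TP-0903 library was left out.

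LIF (ENSG00000128342, chr22:30240447-30246851, minus strand), which signals through LIFR and gp130, was called in neither comparison. It stood at 35.5 TPM (P15) and 57.4 TPM (P3) with the control shRNA and at 39.4 and 43.0 TPM with the AXL shRNA. Control cells had 26.2 TPM (P17) and 39.1 TPM (P4), and TP-0903 cells had 32.5 and 32.6 TPM. In both comparisons the treated libraries lay between the 2 controls. The fitted change was -0.01 (95% CI -0.65 to 0.63, edgeR adjusted p = 0.983) with the AXL shRNA and -0.07 (95% CI -0.71 to 0.58, adjusted p = 0.902) with TP-0903.

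Of the receptors, IL6R had the greatest change with the AXL shRNA. IL6R (ENSG00000160712, chr1:154405193-154469450, plus strand) encodes the chain that binds IL-6 itself and that makes a cell responsive to IL-6 without a soluble receptor. It stood at 3.85 TPM in both control shRNA libraries, and at 23.6 TPM (P15) and 19.9 TPM (P3) with the AXL shRNA. In counts these were 402 and 481 against 3473 and 3599. The control shRNA libraries were close to each other and the AXL shRNA libraries were several times above them. The change on the log2 scale was 2.84 (SE 0.15, 95% CI 2.48 to 3.21), a 7.18-fold rise (edgeR adjusted p = 2.82e-04).

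With TP-0903, IL6R was at 3.40 TPM (P17) and 3.68 TPM (P4), and in control cells it was at 2.97 and 3.72 TPM. These levels overlapped, while the scaled counts of both treated libraries were above both controls. On the log2 scale the change was 0.33 (SE 0.15, 95% CI -0.02 to 0.67, edgeR adjusted p = 0.2).

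LIFR (ENSG00000113594, chr5:38474963-38608354, minus strand), the signalling chain for LIF and a partner of gp130, moved the same way. It stood at 5.14 TPM (P15) and 4.47 TPM (P3) with the control shRNA and at 10.4 and 11.2 TPM with the AXL shRNA. In counts the log2 fold change was 1.40 (SE 0.11, edgeR adjusted p = 3.92e-04), a 2.64-fold rise. With TP-0903 it was at 6.38 TPM (P17) and 7.09 TPM (P4) against 5.10 and 4.60 TPM in control cells. The groups did not overlap, and the log2 fold change of 0.36 (SE 0.11) was not called (edgeR adjusted p = 0.0722), but was with the block (adjusted p = 0.038).

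OSMR (ENSG00000145623, chr5:38845858-38945596, plus strand), which pairs with gp130 to bind oncostatin M, rose in both comparisons. With the AXL shRNA it was at 74.6 TPM (P15) and 86.1 TPM (P3) against 70.8 and 68.0 TPM, a log2 fold change of counts of 0.52 (SE 0.13, edgeR adjusted p = 0.0164). The adjusted p was 0.083 without the P3 control shRNA library and 0.0845 without the P3 AXL shRNA library. On the log2(TPM + 1) scale the change was 0.21 (limma, adjusted p = 0.24).

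With TP-0903, OSMR was at 87.1 TPM (P17) and 76.9 TPM (P4) against 51.2 and 60.3 TPM in control cells. Both treated libraries were above both controls. Its log2 fold change was 0.62 (SE 0.13, edgeR adjusted p = 0.0222), a 1.53-fold rise. The adjusted p was 0.133 without P17 control, 0.164 without P17 TP-0903 and 0.0581 without P4 control. Its exons share 229 bases with RICTOR on the other strand (1152 to 3786 counts), and reads there cannot be assigned by strand. OSM, the ligand, had 1 to 3 counts in each library.

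IL6ST (ENSG00000134352, chr5:55935095-55994993, minus strand), the shared chain gp130, was not called in either treatment. It stood at 109 TPM (P15) and 116 TPM (P3) with the control shRNA and at 82.6 and 82.7 TPM with the AXL shRNA. In counts the log2 fold change was -0.07 (95% CI -0.43 to 0.28, edgeR adjusted p = 0.731), and on the log2(TPM + 1) scale it was -0.44 (limma, adjusted p = 0.0706). With TP-0903 it was at 66.5 TPM (P17) and 58.7 TPM (P4), between the control cells at 52.9 and 74.4 TPM, with a log2 fold change of 0.11 (95% CI -0.25 to 0.47, adjusted p = 0.7).

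The 2 kinds of control differed for IL6ST. It was higher with the control shRNA than in control cells by 0.78 on the log2 scale (SE 0.15, edgeR adjusted p = 0.0272), and was the 1 of the 10 genes called in that comparison, where 9.15% of all genes passed. The call was lost without any of 5 libraries: P15 control shRNA (adjusted p = 0.103), P3 control shRNA (0.0905), P17 control (0.157), P17 TP-0903 (0.0515) or P4 TP-0903 (0.054). The numbers of the 2 kinds of control do not match, so number and kind of control cannot be told apart.

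Set against gp130, the balance of receptor chains in the same library differed by treatment. IL6R was at 3.53% (P15) and 3.33% (P3) of the TPM of IL6ST with the control shRNA and at 28.6% and 24.1% with the AXL shRNA. LIFR went from 4.71% and 3.87% to 12.6% and 13.5%, and OSMR from 64.9% and 58.8% to 90.4% and 104%. All 3 chains were higher relative to gp130 in both knockdown libraries than in either control shRNA library.

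With TP-0903, IL6R was at 5.11% (P17) and 6.27% (P4) against 5.61% and 5.00% in control cells, and LIFR was at 9.59% and 12.1% against 9.64% and 6.18%. Both pairs overlapped. OSMR was at 131% in both treated libraries against 96.8% and 80.9%, with no overlap. These ratios are descriptions, with no test.

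**Figure D3:**
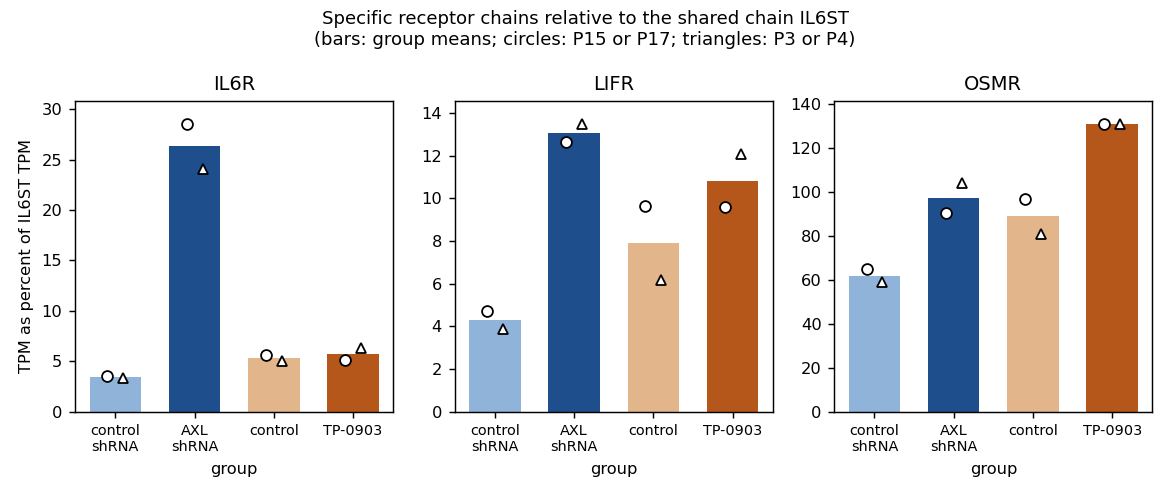
TPM of IL6R, LIFR and OSMR as a percent of the TPM of IL6ST, with bars for group means, circles for P15 or P17 and triangles for P3 or P4. IL6R reaches 28.6% and 24.1% with the AXL shRNA and is at or below 6.27% in the other 6 libraries.

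Of the feedback inhibitors, SOCS1 and SOCS2 rose with the AXL shRNA, and none was called with TP-0903. SOCS1 (ENSG00000185338, chr16:11254405-11256200, minus strand), which binds and blocks JAK kinases, had few counts. It had 14 (P15) and 8 (P3) expected counts with the control shRNA and 82 and 114 with the AXL shRNA, or 0.65 and 0.33 against 3.0 and 3.40 TPM. Both knockdown libraries were well above every other library. The fitted change was 2.96 (SE 0.40, 95% CI 2.01 to 3.90, edgeR adjusted p = 0.00192).

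With TP-0903, SOCS1 had 15 (P17) and 11 (P4) counts against 9 and 11 in control cells. The log2 fold change of 0.59 (SE 0.43, 95% CI -0.42 to 1.61) was not called (edgeR adjusted p = 0.416), and counts this low leave a wide interval.

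SOCS2 (ENSG00000120833, chr12:93569814-93583487, plus strand), best known as a brake on growth hormone signalling through STAT5, rose with the AXL shRNA and had a negative value with TP-0903. It stood at 11.4 TPM (P15) and 10.8 TPM (P3) with the control shRNA and at 18.2 and 22.9 TPM with the AXL shRNA. On the log2 scale the change was 1.21 (SE 0.24, edgeR adjusted p = 0.00726), and both knockdown libraries were at about the same multiple of their control in CPM (232% and 230%).

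With TP-0903, SOCS2 was at 5.13 TPM (P17) and 7.36 TPM (P4) against 11.4 and 8.64 TPM in control cells. Both treated libraries were below both controls. The log2 fold change of -0.63 (SE 0.24) was not called (edgeR adjusted p = 0.135), and the blocked value was -0.64 (adjusted p = 0.0495). SOCS2 shares 277 exon bases with SOCS2-AS1 on the other strand, and reads there cannot be assigned by strand. SOCS2-AS1 had 12 to 152 counts against 195 to 1356 for SOCS2. The SOCS2-AS1 counts were 52 (P15) and 61.1 (P3) with the control shRNA and 70.4 and 152 with the AXL shRNA. They were 72 (P17) and 89.0 (P4) in control cells and 12 and 29 with TP-0903. The part of these reads in the SOCS2 values was not tested.

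SOCS3 (ENSG00000184557, chr17:78356778-78360077, minus strand), the inhibitor that binds gp130 and the classic early target of STAT3, was not called in either comparison. It stood at 12.1 TPM (P15) and 12.6 TPM (P3) with the control shRNA and at 12.1 and 13.3 TPM with the AXL shRNA, a log2 fold change of counts of 0.29 (95% CI -0.38 to 0.95, edgeR adjusted p = 0.455). With TP-0903 it was at 4.61 TPM (P17) and 7.79 TPM (P4) against 6.60 and 10.3 TPM in control cells. The groups overlapped, and within each number the treated library was lower, at 71.1% and 77.8% of its control in CPM. The log2 fold change of -0.41 (SE 0.29, edgeR adjusted p = 0.396) was -0.42 with the block (adjusted p = 0.0384).

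The test of whether both treatments had the same effect (the change with TP-0903 minus the change with the AXL shRNA) called 4 of the 10 genes, all lower: IL6R, LIFR, SOCS1 and SOCS2. Of all genes, 20.6% passed this test, 9.82% higher and 10.8% lower. For IL6R the difference was -2.52 (SE 0.21, edgeR adjusted p = 0.00118), and for LIFR it was -1.04 (SE 0.15, adjusted p = 0.00477). For SOCS2, with effects of opposite sign, it was -1.84 (SE 0.34, adjusted p = 0.0103).

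For SOCS1 the difference was -2.36 (SE 0.59, edgeR adjusted p = 0.0304). This call was lost when any library other than P15 control shRNA was left out: the adjusted p was 0.0669 without P15 AXL shRNA, 0.078 without P3 control shRNA, 0.0808 without P3 AXL shRNA, 0.083 without P17 control, 0.0633 without P17 TP-0903, 0.0926 without P4 control and 0.0993 without P4 TP-0903. For LIFR the difference was -0.62 on the log2(TPM + 1) scale (limma, adjusted p = 0.104).

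With the block the test also called IL11 (1.38, adjusted p = 0.00517, the fall being smaller with TP-0903) and SOCS3 (-0.72, adjusted p = 0.0134), against 36.9% of all genes. For OSMR, which rose in both, the difference was 0.10 with a 95% CI of -0.31 to 0.51 (edgeR adjusted p = 0.722), so a difference in the size of its rise was not detected and is bounded by that interval.

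Among the signal carriers, STAT3 and JAK1 rose in both treatments. STAT3, the main transcription factor of the pathway, stood at 110 TPM (P15) and 83.0 TPM (P3) with the control shRNA and at 210 and 193 TPM with the AXL shRNA. It was at 111 TPM (P17) and 97.4 TPM (P4) in control cells and at 213 and 191 TPM with TP-0903. All treated libraries were above all controls. The fitted change was 1.33 (SE 0.16, edgeR adjusted p = 0.00118) with the AXL shRNA and 0.96 (SE 0.16, adjusted p = 0.01) with TP-0903, where the call was lost without P17 control, P17 TP-0903 or P4 control (adjusted p up to 0.0777).

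JAK1, a kinase that docks on gp130, rose by 0.58 (SE 0.14, edgeR adjusted p = 0.0138) with the AXL shRNA and by 0.72 (SE 0.14, adjusted p = 0.017) with TP-0903. The first call was lost without P15 control shRNA or P3 AXL shRNA (adjusted p up to 0.0811) and the second without any of the 4 libraries compared (up to 0.111). Of the 7 JAK and STAT genes tested, 3 rose and 1 fell with the AXL shRNA (median 0.17), against 37.5% of all genes called. STAT5A, a partner of growth hormone and cytokine receptors, rose by 1.17 (adjusted p = 0.0108, 0.0647 without P3 control shRNA). JAK2 fell by 0.57 (adjusted p = 0.0337), a call kept only without P15 AXL shRNA among the fits that leave out 1 library (up to 0.157). With TP-0903, 2 of 7 rose and none fell (median 0.49), against 11.3% of all genes called. With the block 4 rose there, STAT5A among them (0.84, adjusted p = 0.00596), against 26.3% of all genes called. JAK2 without the block had a value of 0.07 with TP-0903 (edgeR adjusted p = 0.837).

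The other ligands and receptors of the family were mostly low. Of the 8 other ligands, 4 were tested, and 2 rose with the AXL shRNA, against 18.5% of all genes called higher. EBI3, a subunit of the IL-27 heterodimer, rose by 1.65 (SE 0.29, edgeR adjusted p = 0.00491). CLCF1, which signals through its receptor chain CNTFR together with LIFR and gp130, rose by 0.76 (SE 0.17, edgeR adjusted p = 0.0129). That call was lost without P15 control shRNA or P3 AXL shRNA. None of the 4 was called with TP-0903, and none of the 3 other receptors tested was called in either comparison without the block. CNTFR, the chain that CLCF1 needs and the receptor of this list that was not tested, had group means of 0 to 0.163 CPM. With the block, IL31RA, a receptor chain for IL-31, was called higher with the AXL shRNA (1.01, adjusted p = 0.0216) and with TP-0903 (1.24, adjusted p = 0.0202). IL27RA was called higher with TP-0903 (0.66, adjusted p = 0.0361).

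Among the 5 other SOCS genes, 2 fell and none rose with the AXL shRNA, against 19% of all genes called lower. SOCS6 fell by 0.98 (SE 0.15, edgeR adjusted p = 0.00333) and SOCS4 fell by 0.32 (SE 0.09, adjusted p = 0.0344). The SOCS4 call was lost without any 1 of the 8 libraries (adjusted p up to 0.175). With TP-0903 none of the 5 was called (median -0.22). The block added SOCS5 (0.39, adjusted p = 0.0187) with the AXL shRNA and SOCS6 (-0.44, adjusted p = 0.0114) with TP-0903. CISH, a STAT5 target, had the lowest value of the 5 with TP-0903 without the block (-1.42, edgeR adjusted p = 0.0966). Its level was low, at 0.962 ± 0.169 CPM (SD, n = 2) in control cells and 0.356 ± 0.242 CPM with TP-0903.

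Of 10 adaptors, phosphatases, PIAS proteins and sheddases, 1 rose and 2 fell with the AXL shRNA, against 37.5% of all genes called. PTPN1, a phosphatase that acts on JAK2 and TYK2, rose by 1.11 (SE 0.14, edgeR adjusted p = 0.00159). ADAM10, a protease that can release IL6R from the cell surface, fell by 0.61 (SE 0.12, adjusted p = 0.00736). PTPN2 fell by 0.37 (adjusted p = 0.0445), a call lost without any 1 of the 8 libraries (up to 0.161). None of the 10 was called with TP-0903 without the block, which called PTPN1 (0.49, adjusted p = 0.0119) and the sheddase ADAM17 (0.50, adjusted p = 0.0128) higher.

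Textbook STAT3 target genes moved in both directions. Of 23 tested from a list of 28, 4 rose and 2 fell with the AXL shRNA (median 0.05), against 37.5% of all genes called. With TP-0903, 2 rose and 3 fell (median -0.34), against 11.3% of all genes called. With the block the counts were 7 higher and 8 lower with the AXL shRNA, and 3 higher and 9 lower with TP-0903. Of all genes, the block called 51.7% and 26.3%. The fibrinogen genes FGA, FGB and FGG were among those called lower with the block in both, with blocked values of -2.67, -1.40 and -1.62 for the AXL shRNA (adjusted p = 5.63e-06, 1.88e-04 and 4.38e-05) and of -1.76, -2.49 and -1.83 for TP-0903 (2.06e-05, 3.45e-05 and 8.30e-05). Without the block none of these fibrinogen genes was called in either comparison. The edgeR adjusted p was 0.0676, 0.291 and 0.255 with the AXL shRNA and 0.262, 0.142 and 0.339 with TP-0903. LRG1 and LBP were called higher with the block for the AXL shRNA (1.55 and 1.07, adjusted p = 0.0299 and 0.0434). For TP-0903 the block called both lower (-3.69 and -2.64, adjusted p = 0.033 and 0.019). Group means of LRG1 and LBP were low, at most 1.23 and 3.79 CPM. CCND1, the cyclin of early G1, rose in both, by 1.49 (SE 0.16, edgeR adjusted p = 9.48e-04) and by 1.05 (SE 0.16, adjusted p = 0.00848, lost without P17 control or P17 TP-0903, up to 0.0675). SERPINA3, an acute-phase protease inhibitor, rose by 2.01 (SE 0.32, adjusted p = 0.00332) with the AXL shRNA and fell by 2.11 (SE 0.36, adjusted p = 0.0116) with TP-0903. The fall was not called without P17 TP-0903, P4 control or P4 TP-0903 (up to 0.103).

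The growth regulator MYC rose by 1.23 (SE 0.20, edgeR adjusted p = 0.00353) with the AXL shRNA, and VEGFA, an angiogenic factor, fell by 1.64 (SE 0.19, adjusted p = 0.00118). BIRC5, survivin, a gene of dividing cells, fell by 2.75 (SE 0.25, adjusted p = 0.00115) with TP-0903. Its level differed between the 2 kinds of control, at 12.9 ± 2.07 CPM (SD, n = 2) with the control shRNA and 141 ± 26.6 CPM in control cells (log2 difference -3.45, edgeR adjusted p = 7.33e-04), and was 20.9 ± 4.53 CPM with TP-0903. BCL3, an NF-kappaB cofactor, fell by 0.50 with TP-0903 (SE 0.10, adjusted p = 0.0217), a call lost without any of the 4 libraries compared (up to 0.169). In edgeR's test of the difference of both effects, 2 of the 23 were higher and 5 lower, against 20.6% of all genes called. SERPINA3 was at -4.13 (adjusted p = 0.00234), BIRC5 at -2.94 (0.00251), BCL3 at -0.90 (0.00596) and VEGFA at 1.61 (0.00782). With the block 6 of the 23 were higher and 8 lower, against 36.9% of all genes called.

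Of the 11 factors known to act on the IL6 gene, 6 rose with the AXL shRNA and none fell (median 0.72), against 18.5% of all genes called higher. NFKB2 rose by 2.18 (SE 0.31, edgeR adjusted p = 0.00227) and its partner RELB by 2.39 (SE 0.36, adjusted p = 0.00283). FOSL1, an AP-1 subunit, rose by 2.19 (SE 0.38, adjusted p = 0.00471), and JUN, its partner, by 0.93 (SE 0.20, adjusted p = 0.0111, 0.0563 without P15 AXL shRNA).

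With TP-0903, 2 of 11 rose (median 0.24), against 4.9% of all genes called higher. RELB rose by 1.52 (SE 0.36, edgeR adjusted p = 0.0363) and FOSL1 by 1.51 (SE 0.38, adjusted p = 0.0447). Leaving out 1 library ended the RELB call in 5 of 8 fits and the FOSL1 call in 6 of 8 (adjusted p up to 0.207 and 0.236, both without P17 TP-0903). With the block, 7 were higher and 1 lower with the AXL shRNA, and 3 were higher with TP-0903, NFKB2 among them (1.12, adjusted p = 0.0062). Of all genes, the block called 51.7% and 26.3%. In the test of the difference of both effects, none of the JAK and STAT genes, other ligands, other receptors, other SOCS genes or factors on IL6 was called without the block. ADAM10, of the adaptors and sheddases, was higher there (0.83, adjusted p = 0.0149, lost without P3 AXL shRNA, P17 control or P4 TP-0903, up to 0.0509). The block called 2, 1, 2, 3, 5 and 2 genes of these lists in that test, in the order ligands, receptors, JAK and STAT, SOCS, factors on IL6, and adaptors. Of all genes it called 36.9%. The pathway lists and the 10 genes share no gene, while CEBPB stands in both the list of STAT3 targets and that of factors on IL6.

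**Figure D4:**
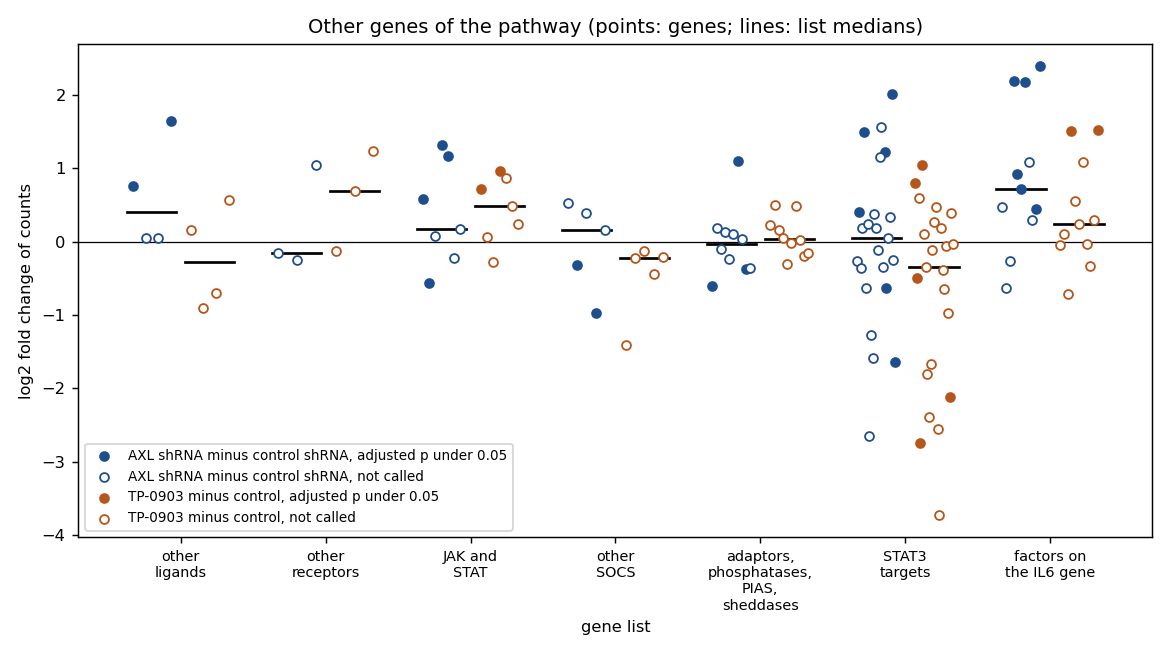
Log2 fold change of counts for the other genes of the pathway, by list, with filled points for an adjusted p under 0.05 in edgeR's quasi-likelihood test and lines for list medians. With the AXL shRNA, 6 of the 11 factors that act on the IL6 gene are filled and higher, and STAT3 targets lie on both sides of 0.

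Markers of cell identity moved with the AXL shRNA as well, beside the changes of IL6R, LIFR, SOCS1 and SOCS2. The 13 epithelial markers summed to 21060 to 26140 TPM with the control shRNA and to 36570 to 41030 TPM with the AXL shRNA, and 6 of 11 tested rose, against 18.5% of all genes called higher, among them KRT8 (1.94), KRT18 (1.78), KRT19 (3.45) and EPCAM (1.86). The 7 fibroblast markers summed to 11.8 to 14.1 TPM and to 27.6 to 49.6 TPM, and 3 of 5 tested rose: COL3A1 (4.29), LUM (2.04) and COL1A1 (1.30). Of all genes, 18.5% were called higher and 19% lower in this comparison, the shares to set beside each marker list. The LUM and COL1A1 calls were each lost without any of 3 of the 4 shRNA libraries, P15 control shRNA and P3 control shRNA for both, with P15 AXL shRNA for LUM and P3 AXL shRNA for COL1A1 (adjusted p up to 0.125 and 0.127). Of 4 leukocyte markers tested, ITGAM (2.16) and CD79A (2.97) rose and CD14 fell by 1.27 (a call lost without any of the 4 shRNA libraries, up to 0.126), with sums of 18.4 to 29.6 TPM and 17.9 to 19.9 TPM. The 1 endothelial marker tested, CDH5, was not called (adjusted p = 0.149), and was with the block (2.51, adjusted p = 0.00107). With TP-0903, 2 epithelial markers rose, KRT19 (1.75) and KRT7 (0.81), against 4.9% of all genes called higher, and no marker of the other lists was called. Leaving out 1 library ended the KRT19 call in 6 of 8 fits and the KRT7 call in 7 of 8 (adjusted p up to 0.212 and 0.217, both without P17 TP-0903). With the block, 3 epithelial, 1 leukocyte and 1 fibroblast marker were also called lower, where 26.3% of all genes were called in either direction. The test of the difference of both effects called 3 epithelial markers lower (EPCAM, KRT18 and KRT8, at -2.96, -1.79 and -1.64) and 2 fibroblast markers lower (COL3A1 at -5.26 and COL1A1 at -1.82, the latter called in 1 of the 8 fits that leave out 1 library, up to 0.125). Of all genes, 20.6% passed that test of the difference. The part of these markers in the results on the family genes was not tested.

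For 4 of the genes, the protein-coding genes with the most similar pattern over the 8 libraries were sought among 10857 genes, by Pearson's r of log2 CPM and as a description of libraries that share groups and depth. For IL6 these were ZBTB17 (0.940), EFNB2 (0.938) and TNC (0.935). For LIF they were TMEM120B (0.966), FAM156B (0.945) and USP53 (0.930). For SOCS2 they were COIL (0.986), KATNBL1 (0.985) and KCTD20 (0.985), and for SOCS3 they were BMP6 (0.982), TFAP2C (0.982) and FAM89A (0.978). IL6 and SOCS1 had a mean below the 5 CPM needed to be searched, so neither could appear. None of the family genes that were searched was among the 3 most similar to IL6, LIF, SOCS2 or SOCS3. IL6 itself was at 1.88 CPM in the P17 TP-0903 library and at 0.150 to 0.845 CPM in the others. No chance level was worked out for r over 8 libraries with 10857 genes searched.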

How the data were processed

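Per the submitters' processing notes, the authors used STAR (2.5.3a), RSEM and GRCh38. The RSEM version and the annotation are not given in the sources. Each deposited expected count is an RSEM estimate of the reads from 1 gene, without normalization by the authors. The deposited TPM corrects it for effective length and depth within a library. No strand is stated for the Nextera XT libraries. Both libraries of a group differed beyond counting error in 50.7% to 56.9% of genes, so neither was a second sequencing of the other. This check cannot tell separate cultures from repeat preparations of 1 culture or RNA. Positions are from GENCODE 29.

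Expected counts were rounded, filtered with filterByExpr, scaled by TMM and fitted with edgeR 4.0.16 (quasi-likelihood test, 1 term per group, 8 libraries, R 4.3.3), with Benjamini-Hochberg adjustment over 17676 genes. The biological coefficient of variation was 21.5%. A gene was called at an adjusted p under 0.05. Background shares are percentages of all genes called. With 2 libraries a group, the spread is shared across the groups. The fit was also run on simulated counts with few changed genes, the same spread for all genes and no effect of the P number. These data differ in those respects, so that run does not measure the error of the calls here.

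Libraries with the same P number deviated together, at r = 0.559 and 0.626 (within a group of 2 the deviations mirror each other). For P15 set with P17, r was 0.177 to 0.380, but these libraries belong to different comparisons and are not unpaired libraries of the same one. The number was taken as a pairing from the titles. The blocked fit has a term for each P number and each treatment, which leaves few degrees of freedom to estimate the spread. Blocked values stand where they change a call of the 10 genes or AXL. For the other lists they stand as counts with examples, some of which, such as the fibrinogen genes, fall outside the naming rule given below. Alternatives used DESeq2 1.42.0, limma 3.58.1 (voom, and log2(TPM + 1) or log2(TPM + 0.1)), other filters, effective lengths as offsets and fits without each library.

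The 10 genes and the other lists were chosen with earlier results of these data known. All 10 are named with their values. Of each other list, the called genes are counted and at most 4 with the smallest p are named, beside JAK1, JAK2, STAT3 and AXL. The values of 1 other gene of that rule are not reported here. The remark on CISH was chosen after its value was seen. The genes of most similar pattern had a mean of at least 5 CPM, and log2 CPM used a pseudocount of 2.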

Additional observations from a re-analysis of the deposited data

Results flagged for a closer look

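For 4 of the 10 genes, the change against the own control differed between the treatments by the test of the difference itself (edgeR's quasi-likelihood test, TP-0903 effect minus AXL shRNA effect, on the log2 scale). The difference was -2.52 for IL6R (adjusted p = 0.00118), whose counts rose in 2 of 2 AXL shRNA libraries and were not called with TP-0903. It was -1.04 for LIFR (adjusted p = 0.00477) and -2.36 for SOCS1 (adjusted p = 0.0304), for which both effects had the same sign. It was -1.84 for SOCS2 (adjusted p = 0.0103), for which the effects had opposite signs. All 4 kept their direction in every alternative tried, and the SOCS1 difference passed the threshold in 9 of 16 alternatives.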

How the results depend on the processing

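The 10 genes gave 691 values in 4 comparisons under the alternatives: 617 kept their direction and their side of the threshold, 23 fell short of it, 15 newly passed and 36 changed sign. None of the values that passed the threshold changed sign, and for each change below the cause was not tested unless the setting uses fewer libraries or genes.

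Over all genes, calls with the AXL shRNA (6627) were 4408 to 6105 when 1 library was left out, the lowest without P15 control shRNA. For TP-0903 (1989) they were 3515 with all genes of at least 1 count, 4647 with the replicate block and 489 to 1727 without 1 library. For the difference (3645) they were 6530 with the block and 1855 to 2670 without 1 library. For the 2 kinds of control (1618) they were 2620 with DESeq2, 3352 with all genes of at least 1 count, 743 with the 4 libraries alone and 343 to 1277 without 1 library. Of the 10 genes, TP-0903 calls (1) were 2 with DESeq2, 4 with all genes of at least 1 count, 2 with effective lengths, 5 with the block, 0 with the 4 libraries alone (OSMR adjusted p = 0.0515) and 0 to 1 without 1 library. For the 2 kinds of control (1) they were 0 with the 4 libraries alone and 0 to 1 without 1 library.

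On the TPM scale the split of calls moved. With the AXL shRNA, 31.3% (pseudocount 1) or 31.1% (0.1) were higher against 49.4% in counts, and the median of all genes moved to -0.15 or -0.21. For the difference, 63.5% or 64.2% were higher against 47.6%, with medians of 0.14 and 0.20. Relative to these shifts the signs of the called genes stood.

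The values that changed sign were never called. LIF with the AXL shRNA (-0.01) was 0.018 with RLE size factors, 0.0093 with DESeq2, 0.0395 with voom, 0.011 with at least 1 CPM in 4 libraries, 0.023 with effective lengths, 0.038 with the block and -0.35 to 0.42 without 1 library. LIF with TP-0903 (-0.07) was 0.023 and 0.024 on the TPM scales, 0.034 with effective lengths and -0.34 to 0.29 without 1 library. IL6ST with TP-0903 (0.11) was -0.0068 and -0.0066 on the TPM scales and -0.079 to 0.36 without 1 library. IL6 with TP-0903 was -0.66 to 2.53 without 1 library. The IL6 difference (-0.01) was 0.27 and 0.17 on the TPM scales, 0.0090 with all genes of at least 1 count, 0.59 with effective lengths and -2.33 to 0.86 without 1 library. The LIF difference (-0.06) was 0.15 and 0.16 on the TPM scales, 0.011 with effective lengths and -0.49 to 0.31 without 1 library. The IL6ST difference was -0.0027 to 0.43 without 1 library. Between the 2 kinds of control, without 1 library, IL6 ran from -1.10 to 0.12, LIF from -0.0085 to 0.78, IL11 from -0.10 to 0.96 and SOCS1 from -0.10 to 0.73.

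The replicate block changed no other call of the 10 genes than those given. It could not be fitted for the 2 kinds of control, which share no number. IL6 and SOCS1 have no value with at least 1 CPM in 4 libraries, and SOCS1 none with the 4 control libraries alone. Depth limits IL6 and SOCS1, at 5 to 61.3 and 8 to 114 counts.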
